A study of Mus musculus with 491 samples.

Results

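Fibroblast growth factor (FGF) signalling in and around the embryonic ear was described through 8 genes: the ligands Fgf3, Fgf8, Fgf9, Fgf10 and Fgf15, and the receptors Fgfr1, Fgfr2 and Fgfr3. The genes were chosen by name, with earlier results of these data known, and all 8 were among the 19494 genes used from the deposited table. All values come from 491 single cells of E10.5 mouse embryos, sorted for tdTomato fluorescence after dissection of the otic vesicle with its surrounding tissue. Every embryo carried Pax2-Cre/+;Ai14-tdTomato/+, so the cells share the Cre transgene and the reporter, and there was no other genotype, treatment or stage. The reporter stays on in a cell once Cre has been active in it or in its ancestors, so a sorted cell need not express Pax2, which 21 of the 138 otic epithelium-like cells had (15.2%). The labels give 2 replicates, of 237 and 254 cells on 3 plates each. The labels do not say whether a replicate was an embryo, a litter or a sort, so p-values measure the spread between these samples, which may be technical.

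FGF ligands are secreted proteins that bind receptor tyrosine kinases at the cell surface together with heparan sulphate, and the signal runs through the Ras and MAP kinase cascade to targets such as the Etv factors, the Sprouty genes and Dusp6, several of which dampen the pathway in turn. Splicing of Fgfr1, Fgfr2 and Fgfr3 sets which ligands a receptor binds. Epithelial splice forms of Fgfr2 bind Fgf3 and Fgf10, while Fgf9 acts mainly on the mesenchymal forms. In the mouse ear Fgf3, Fgf8 and Fgf10 take part in induction of the otic placode, Fgf3 and Fgf10 then act in growth and shaping of the vesicle, and the receptor that they share there is Fgfr2. The table has 1 value per gene, so splice forms could not be told apart.

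The deposited values are log2(FPKM + 1), FPKM being the fragments of a gene scaled by its length and by the cell's total, so levels are given per length. A gene was counted as found in a cell at an FPKM of at least 1. The depth in reads is unknown. Between 2552 and 6403 genes were found per cell (median 4513). No label gives a cell type, so cells were grouped by 81 marker genes, none of them an FGF gene, and each name ends in "-like". The groups were 59 differentiating neuron-like cells (Pou4f1 in 91.5%, Stmn2 in 88.1%), 29 early neuroblast-like cells (Neurod1 in 93.1%, Neurog1 in 44.8%, Epcam still in 72.4%), 33 epibranchial neuron-like cells (Tlx2 in 100%), 102 neural tube progenitor-like, 39 surface ectoderm-like and 23 mesenchyme-like cells, 44 cells of cluster 3, in which neuronal and neural tube markers were mixed, 24 cells of cluster 10, and 138 otic epithelium-like cells (Epcam in 100%, Dlx5 in 68.8%, Oc90 in 59.4%). The neuroblast genes Neurod1 and Isl1 also led the differentiating and epibranchial neuron-like groups. Clusters 3 and 10 were left unnamed, and cluster 10 held 3 cells with macrophage markers. The leading genes of cluster 10 included Fabp7, Nes and Fgfr3 beside Colec12 and Dab2. Fgfr3 was also a leading gene of cluster 1, which is part of the neural tube progenitor-like class. The median number of genes found per cell was 4622 in differentiating neuron-like, 4416 in early neuroblast-like, 4695 in epibranchial neuron-like, 4269 in neural tube progenitor-like, 4483 in surface ectoderm-like, 5215 in mesenchyme-like and 4746.5 in otic epithelium-like cells. In each class the most frequent of the 10 mesenchyme markers was taken, so the gene can differ between classes. It was found in 91.3% of mesenchyme-like, 45.8% of differentiating neuron-like and 40.6% of otic epithelium-like cells. Prrx2 was the only mesenchyme marker in at least 30% of cells of the differentiating neuron-like cluster or of any otic cluster. The part of the number of genes found, or of these markers, in the results was not tested.

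Transcripts were shared between wells. Of 552 ordered pairs of row positions, 19 shared rare transcripts at the same column in both replicates, 17 of them neighbouring rows of a plate, which gave 337 cells a known source well and left 154 without one. The main counts below are therefore also given after values under 10% of the source well were set to 0 (the correction), or for the 154 cells. Those may have received transcripts from wells that are not in the table. Some genes overlap others in the GENCODE M21 annotation, and no source used here states counting by strand. Fgf9, Fgf10, Fgf15, Fgfr1 and Fgfr3 each have an annotated gene on the opposite strand, and the Fgfr2 gene model spans 2.96 megabases and overlaps 30 other protein-coding genes. Whole gene spans were compared, introns included, and shared exons were not looked for. The values of these genes may include reads of their partners, and how many is unknown. The RefSeq window before an Fgfr2 transcript start, chr7:130266809-130267058, lies inside that span, so much of it may not apply to the Fgfr2 values. In GRCm38 the ligands lie at chr7:144838083-144844436 (Fgf3, plus strand), chr19:45736798-45742915 (Fgf8, minus), chr14:58070547-58112720 (Fgf9, plus), chr13:118669791-118792115 (Fgf10, plus) and chr7:144896531-144900953 (Fgf15, plus). The receptors lie at chr8:25513654-25575718 (Fgfr1, plus), chr7:130162451-133123350 (Fgfr2, minus) and chr5:33721674-33737068 (Fgfr3, plus).

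Over all cells the receptors were found more widely than the ligands. Fgfr1 was found in 272 cells (55.4%, exact 95% interval 50.9 to 59.9), Fgfr2 in 268 (54.6%, 50.1 to 59.1) and Fgfr3 in 180 (36.7%, 32.4 to 41.1). Among the ligands, Fgf10 was found in 138 cells (28.1%, 24.2 to 32.3) and Fgf9 in 130 (26.5%, 22.6 to 30.6). Fgf15 was rarer, with 41 cells (8.35%, 6.06 to 11.16), as were Fgf8 with 38 (7.74%, 5.53 to 10.47) and Fgf3 with 34 (6.92%, 4.84 to 9.54). After the correction the numbers of cells were 263 for Fgfr1, 231 for Fgfr2, 141 for Fgfr3, 116 for Fgf10, 120 for Fgf9, 30 for Fgf15, 33 for Fgf8 and 28 for Fgf3. A rare gene could still be abundant where it was found: the median FPKM over the cells with the gene was 52.0 for Fgf15, 44.0 for Fgf8 and 40.7 for Fgf3, against 9.95 for Fgfr1. Intervals count cells only, and cells are not replicates.

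**Figure D1:**
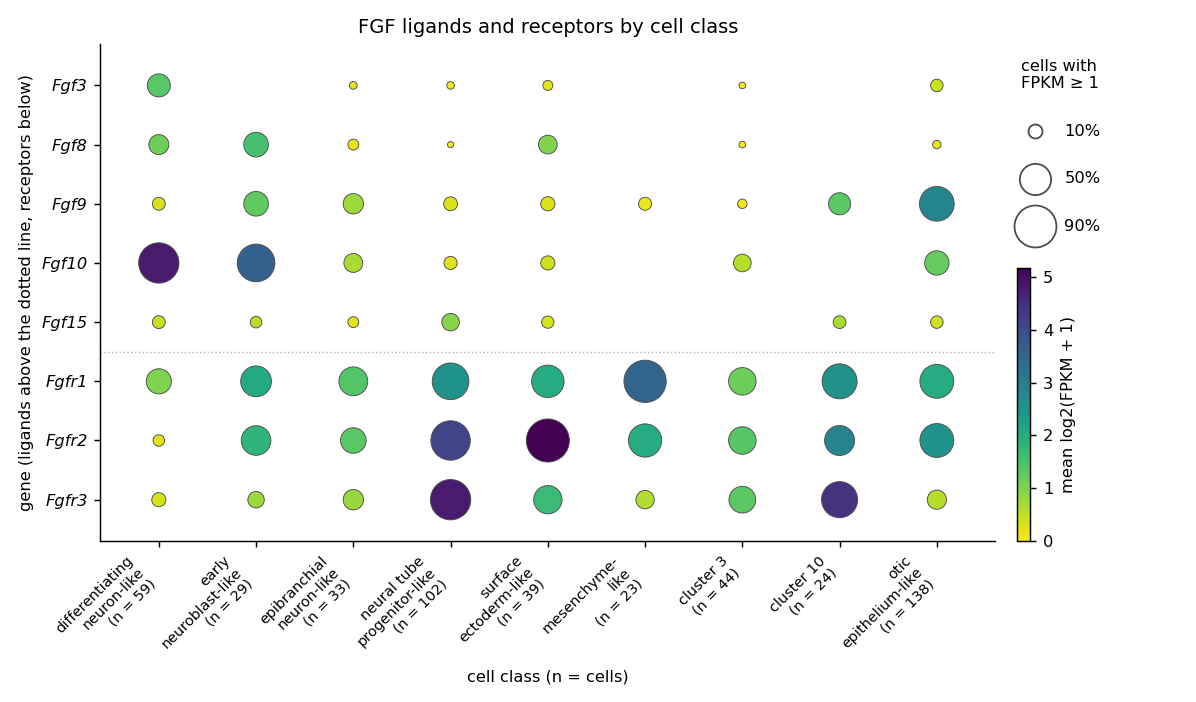
Each row is a gene and each column a cell class with its number of cells; the area of a circle is the percentage of cells with an FPKM of at least 1, and the colour is the mean log2(FPKM + 1), averaged over the 2 replicates. Fgf10 is strongest in differentiating neuron-like cells (83.1% of cells), Fgf9 in otic epithelium-like cells (61.6%), Fgfr2 in surface ectoderm-like cells (94.9%) and Fgfr3 in neural tube progenitor-like cells (83.3%).

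Differences between classes were tested with limma on the class means of each replicate (18 means, 9 classes, with the replicate as a block) over all 10179 genes found in at least 5% of cells, markers excepted. All 8 FGF genes passed that filter. Fgf3, found in 6.92% of all cells, would not have passed without the 16 differentiating neuron-like cells that held it. Every call of Fgf3 involves that class, so its p-values are not independent of the filter. A call is a Benjamini-Hochberg adjusted p below 0.05. The classes were made from the same cells, so the tests bear on genes that go with the markers and were not chosen by them. For early neuroblast-like minus otic epithelium-like cells 2 of the 8 FGF genes were called, where 1.93% of all genes tested were. Between differentiating neuron-like and early neuroblast-like cells it was 1 of 8 (3.52% of all genes), and between differentiating neuron-like and otic epithelium-like cells 5 of 8 (9.15%). The other classes, each minus the otic epithelium-like cells, gave 2 of 8 for neural tube progenitor-like (4.94% of all genes), 2 of 8 for surface ectoderm-like (3.25%), 1 of 8 for mesenchyme-like (4.42%), 1 of 8 for epibranchial neuron-like (10.07%), 1 of 8 for cluster 3 (15.90%) and 2 of 8 for cluster 10 (5.87%). These comparisons share the otic cells, so they are not independent of one another. The comparison of differentiating with epibranchial neuron-like cells was added after the values were seen and gave 3 of 8 (2.27%).

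**Figure D2:**
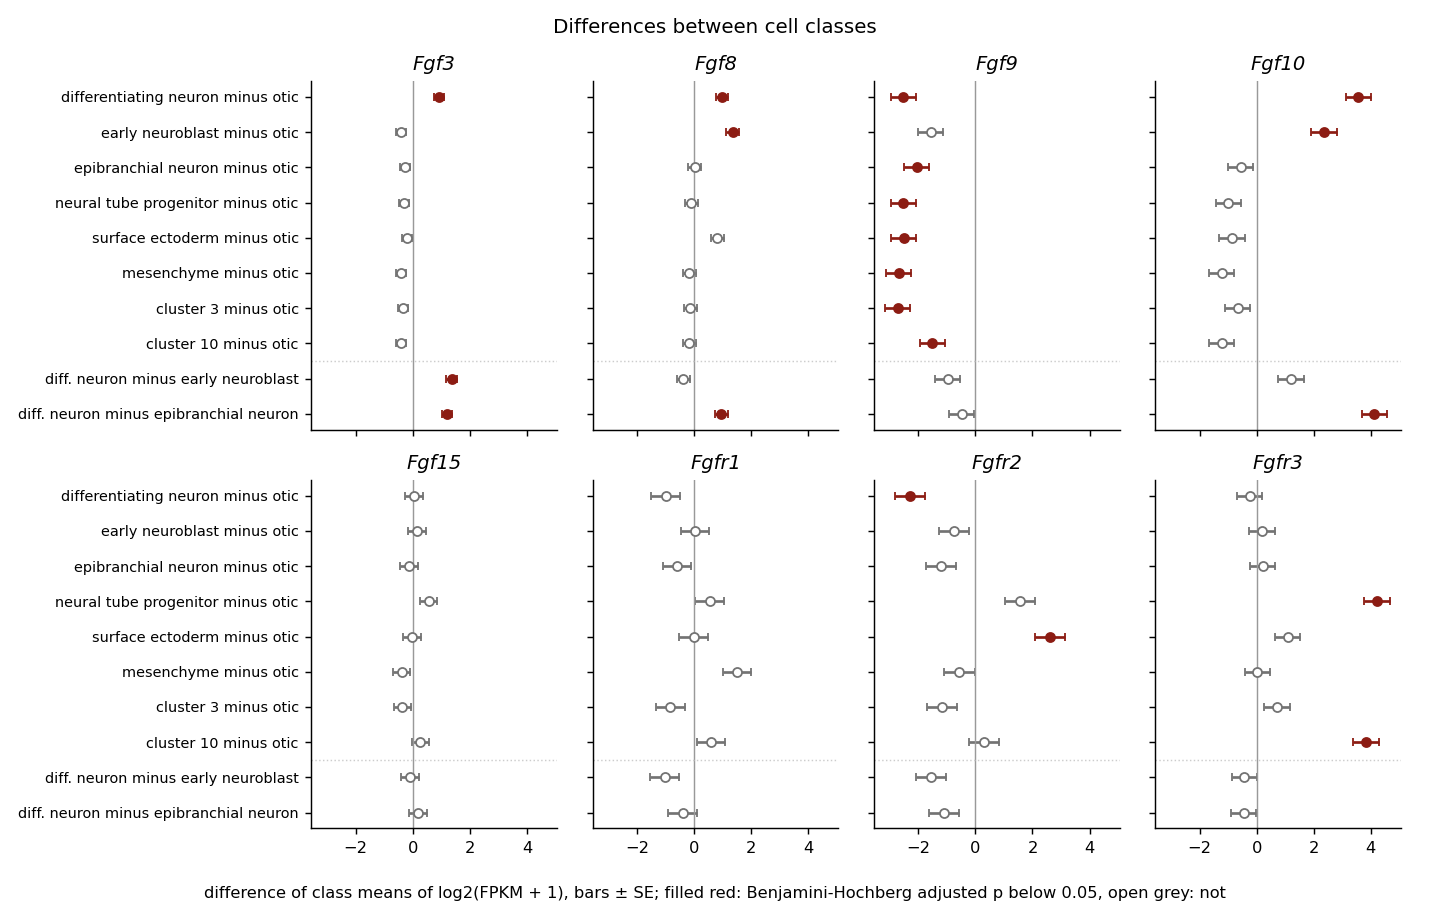
Each panel is a gene, each line a comparison of 2 classes (the class named first minus the second), and each point the difference of their mean log2(FPKM + 1) with its standard error as a bar. Filled red points passed the adjusted p of 0.05: Fgf10 is higher in both otic neuronal classes, Fgf9 is lower in 7 of the 8 classes set against the otic epithelium-like cells, and Fgfr3 is higher in neural tube progenitor-like cells and in cluster 10.

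Fgf10, found in 138 cells as deposited and 116 after the correction (Fgf9 in 130 and 120), was highest in the neuronal classes of the ear. In differentiating neuron-like cells it was found in 49 of 59 (83.1%, interval 71.0 to 91.6), with an FPKM of 0 in the lowest cell, 53.9 in the median cell and 300.3 in the highest. Early neuroblast-like cells had it in 21 of 29 (72.4%, 52.8 to 87.3), with a median of 17.2 and a highest value of 183.9, and otic epithelium-like cells in 42 of 138 (30.4%, 22.9 to 38.8), with a median of 0 and a highest value of 114.6. The mean log2(FPKM + 1) in replicates 1 and 2 was 4.505 and 5.08 in differentiating neuron-like cells, 2.76 and 4.43 in early neuroblast-like cells, and 1.15 and 1.304 in otic epithelium-like cells, with no overlap between the 3 classes. The differentiating neuron-like cells exceeded the otic epithelium-like cells by 3.56 (SE 0.45, limma adjusted p = 1.52e-05), in 6 of 6 plates and in each of the 19 settings of the analysis tried. The early neuroblast-like cells exceeded them by 2.37 (SE 0.45, limma adjusted p = 0.00483), in 5 of 6 plates. That call was lost when the log2 was taken of the mean FPKM (2.11, adjusted p = 0.333) and without plate 3 (1.68, adjusted p = 0.317), which held 4 of the 11 early neuroblast-like cells of replicate 1. Plates 1 to 6 held 1, 6, 4, 8, 7 and 3 early neuroblast-like cells, so counts of plates for this class rest partly on few cells. The step between differentiating neuron-like and early neuroblast-like cells was 1.198 and was not called (SE 0.45, limma adjusted p = 0.176).

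Fgf10 was also higher in differentiating neuron-like than in epibranchial neuron-like cells. That comparison was added after the values were seen, so its p-values, here and for Fgf3 and Fgf8, are descriptive. Epibranchial neuron-like cells had Fgf10 in 6 of 33 (18.2%, 6.98 to 35.5), with a highest FPKM of 60.9, and in 4 of 33 after the correction. The differentiating neuron-like cells exceeded them by 4.12 (SE 0.45, limma adjusted p = 1.37e-05), and this held in 6 of 6 plates and all 19 settings. Fgf10 was listed at 0 in all 23 mesenchyme-like cells, which allows a share of up to 14.8% by the exact interval, and in all 24 cells of cluster 10 (up to 14.2%). Both of these classes, with no spread between the replicates, enter the standard error of Fgf10. In neural tube progenitor-like cells, 9 of 102 had Fgf10 as deposited, 3 after the correction and none of the 31 without a known source well.

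The promoter of Fgf10 is printed because Neurod1, a basic helix-loop-helix factor that binds E-boxes, was among the genes most alike to Fgf10, and those of Fgf3 and Fgf9 are set beside it as 2 ligands with other patterns. Neurod1 was also found in 97.0% of epibranchial neuron-like cells, of which 6 of 33 had Fgf10. Each is the 250 bases before the transcript start in RefSeq (build GRCm38.p6, plus strand, 5′ to 3′), and capitals mark CAGATG, the E-box form searched on both strands.
Fgf10 (chr13:118714449-118714698): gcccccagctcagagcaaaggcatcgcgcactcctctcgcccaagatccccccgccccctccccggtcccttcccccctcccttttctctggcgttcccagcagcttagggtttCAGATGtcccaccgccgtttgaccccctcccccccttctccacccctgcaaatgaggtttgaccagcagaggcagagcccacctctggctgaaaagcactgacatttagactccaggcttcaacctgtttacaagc
Fgf3 (chr7:144838362-144838611): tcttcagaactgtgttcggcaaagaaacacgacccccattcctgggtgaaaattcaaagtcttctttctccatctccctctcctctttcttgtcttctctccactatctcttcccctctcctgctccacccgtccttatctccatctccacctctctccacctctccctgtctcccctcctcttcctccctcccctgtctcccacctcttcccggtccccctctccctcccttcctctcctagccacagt
Fgf9 (chr14:58072436-58072685): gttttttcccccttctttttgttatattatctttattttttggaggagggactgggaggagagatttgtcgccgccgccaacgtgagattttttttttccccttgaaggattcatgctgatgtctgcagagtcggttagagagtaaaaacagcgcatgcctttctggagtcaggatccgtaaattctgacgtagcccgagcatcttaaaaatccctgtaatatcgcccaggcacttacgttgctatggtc
The motif CAGATG, or CATCTG on the other strand, was in the Fgf10 window, starting 136 bases before the transcript start, and in none of the windows of Fgf3, Fgf9, Fgfr2 and Fgfr3. Of 32851 windows of the same length, 14.4% hold it, and 66.2% hold the general E-box CANNTG, which includes it. A match in this window is a description of its letters and not a site of binding. The printed windows all lie inside the GENCODE M21 gene spans given above, which begin further upstream. For Fgf10 the span begins at chr13:118669791 and the window at chr13:118714449. Which transcript start these cells use was not tested. No window was available for Fgf8, Fgf15 and Fgfr1.

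Fgf3 and Fgf8 are ligands known from the placode and the hindbrain, and each was found in a minority of the differentiating neuron-like cells. Fgf3 was found in 16 of these 59 cells (27.1%, 16.4 to 40.3), with an FPKM between 1.27 and 122.1 and a median of 53.2 in the cells that had it. It was listed at 0 in all 29 early neuroblast-like cells, which allows a share of up to 11.9%, and 11 of 138 otic epithelium-like cells had it (7.97%, 4.05 to 13.8), at 2.97 to 184.8. Mean log2(FPKM + 1) in the replicates was 1.29 and 1.41 in differentiating neuron-like cells, 0 and 0 in early neuroblast-like cells, and 0.50 and 0.35 in otic epithelium-like cells. The differentiating neuron-like cells were above the early neuroblast-like cells by 1.35 (SE 0.18, limma adjusted p = 0.000112), and no fold is given against a class at 0. Among cells without a known source well that difference was 0.73 and not called (adjusted p = 0.226). They exceeded the otic epithelium-like cells by 0.93 (SE 0.18, limma adjusted p = 0.00131), in 5 of 6 plates. Among cells without a known source well Fgf3 was in 2 of 18 differentiating neuron-like cells, the difference from the otic epithelium-like cells was 0.26 and the call was lost (adjusted p = 0.982). Without plate 1 it was 0.67 (adjusted p = 0.0596), and with fewer, larger clusters 0.48 (adjusted p = 0.127). The correction, by contrast, left 15 of the 16 cells. The early neuroblast-like, mesenchyme-like and cluster 10 means of Fgf3 were 0 in both replicates, and these classes, with no spread, enter the standard error. The same applies to Fgf8 and Fgf10 through mesenchyme-like cells and cluster 10, and to Fgf15 through mesenchyme-like cells, with means of 0 in both replicates.

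Fgf8 was present in some cells of both otic neuronal classes. Of the early neuroblast-like cells 9 of 29 had it (31.0%, 15.3 to 50.8), as did 12 of 59 differentiating neuron-like cells (20.3%, 10.98 to 32.8) and 5 of 138 otic epithelium-like cells (3.62%, 1.19 to 8.25). In the cells that had it the median FPKM was 48.0 in early neuroblast-like cells and 83.8 in differentiating neuron-like cells, against 8.002 in otic epithelium-like cells, of which 1 reached 691.0, the highest Fgf8 value of the table. The replicate means of log2(FPKM + 1) were 1.59 and 1.46 in early neuroblast-like cells, 0.88 and 1.405 in differentiating neuron-like cells, and 0.27 and 0.07 in otic epithelium-like cells. Early neuroblast-like cells were higher than otic epithelium-like cells by 1.36 (SE 0.23, limma adjusted p = 0.00194), in 4 of 6 plates. The 6 plates held between 1 and 8 early neuroblast-like cells each. The difference fell to 0.48 without plate 3 (adjusted p = 0.742), and with the log2 of the mean FPKM it was 1.88 and not called (adjusted p = 0.448). For differentiating neuron-like minus otic epithelium-like cells it was 0.98 (SE 0.23, limma adjusted p = 0.00745), a call that was lost in 6 of 18 settings, among them leaving out plate 1 (0.58), plate 2 (1.21) or plate 3 (1.07).

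Fgf8 was also found in surface ectoderm-like cells, in 7 of 39 (17.9%, 7.54 to 33.5) at 12.35 to 150.3 FPKM, all 7 left after the correction. The replicate means there were 0.89 and 1.056, above the 0.27 and 0.07 of otic epithelium-like cells without overlap, and the difference of 0.80 missed the threshold (SE 0.23, limma adjusted p = 0.0607). Epibranchial neuron-like cells had Fgf8 in 2 of 33, and differentiating neuron-like cells were above them by 0.95 (SE 0.23, limma adjusted p = 0.0283). Of the 18 settings 9 ended that call, which belongs to the comparison added after the values were seen. The same cells were higher in Fgf3 by 1.19 than epibranchial neuron-like cells, which had it in 1 of 33 (SE 0.18, limma adjusted p = 0.000518), and in cells without a known source well the difference was 0.73 (adjusted p = 0.302).

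Fgf9, a ligand that signals from epithelia to mesenchyme in several organs, marked the otic epithelium-like cells. It was found in 85 of 138 (61.6%, 52.9 to 69.7), with a median FPKM of 8.48 over all of them and a highest value of 123.3, and 83 cells remained after the correction. Its replicate means of 2.70 and 2.96 lay above those of each other class without overlap. The next were cluster 10 at 1.26 and 1.36 and early neuroblast-like cells at 2.03 and 0.50, a pair of classes that overlapped. Of the 130 cells with Fgf9 in the table, 65.4% were otic epithelium-like. The difference was -2.53 in differentiating neuron-like cells (SE 0.44, limma adjusted p = 0.000535), -2.53 in neural tube progenitor-like cells (adjusted p = 0.00109), -2.51 in surface ectoderm-like cells (adjusted p = 0.00147) and -2.68 in mesenchyme-like cells (adjusted p = 0.000576), each lower in 6 of 6 plates. Fgf9 was also lower in epibranchial neuron-like cells (-2.05, limma adjusted p = 0.00399) and in cluster 3 (-2.73, limma adjusted p = 0.000225). In cluster 10 the call (-1.52, limma adjusted p = 0.046) was lost in 11 of 19 settings. With the log2 of the mean FPKM the Fgf9 call was also lost in differentiating neuron-like (-3.20, adjusted p = 0.0692), neural tube progenitor-like (-3.65, adjusted p = 0.0573), surface ectoderm-like (-3.18, adjusted p = 0.188) and epibranchial neuron-like cells (-2.96, adjusted p = 0.083). Among cells without a known source well it was lost in neural tube progenitor-like (-2.08, adjusted p = 0.0516) and surface ectoderm-like cells (-1.64, adjusted p = 0.168), and without plate 3 in epibranchial neuron-like cells (-1.91, adjusted p = 0.0504).

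Early neuroblast-like cells held an intermediate level of Fgf9, with 9 of 29 cells (31.0%, 15.3 to 50.8). The difference from otic epithelium-like cells, -1.56, was not called (SE 0.44, limma adjusted p = 0.0797). The replicates differed, with 6 of 11 cells in replicate 1 and 3 of 18 in replicate 2, and the call was made without plate 2 (-2.17, adjusted p = 0.00445) and on means per class and plate (-1.80, adjusted p = 0.00137). Epibranchial neuron-like cells were split by replicate too, with 7 of 17 cells in replicate 1 and 0 of 16 in replicate 2, all 7 left after the correction.

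Fgf15, the mouse counterpart of human FGF19, was found in 16 of 102 neural tube progenitor-like cells (15.7%, 9.24 to 24.2), 8 in each replicate, at 3.05 to 597.1 FPKM with a median of 76.9 in the cells that had it. Otic epithelium-like cells had it in 11 of 138 (7.97%, 4.05 to 13.8) with a median of 28.7. The replicate means of 1.05 and 0.84 in neural tube progenitor-like cells lay above 0.59 and 0.19 in otic epithelium-like cells. The difference of 0.56 was not called (SE 0.30, limma adjusted p = 0.463). Fgf15 was called by limma in none of the 10 comparisons, and 0 of them had an unadjusted p below 0.05. Within the neural tube progenitor-like cells, Fgf15 was in 13 of 72 cells of cluster 1 (18.1%) and 3 of 30 of cluster 7. In the early neuroblast-like cells only 2 of 29 held it, at 104.8 and 330.9 FPKM.

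**Figure D3:**
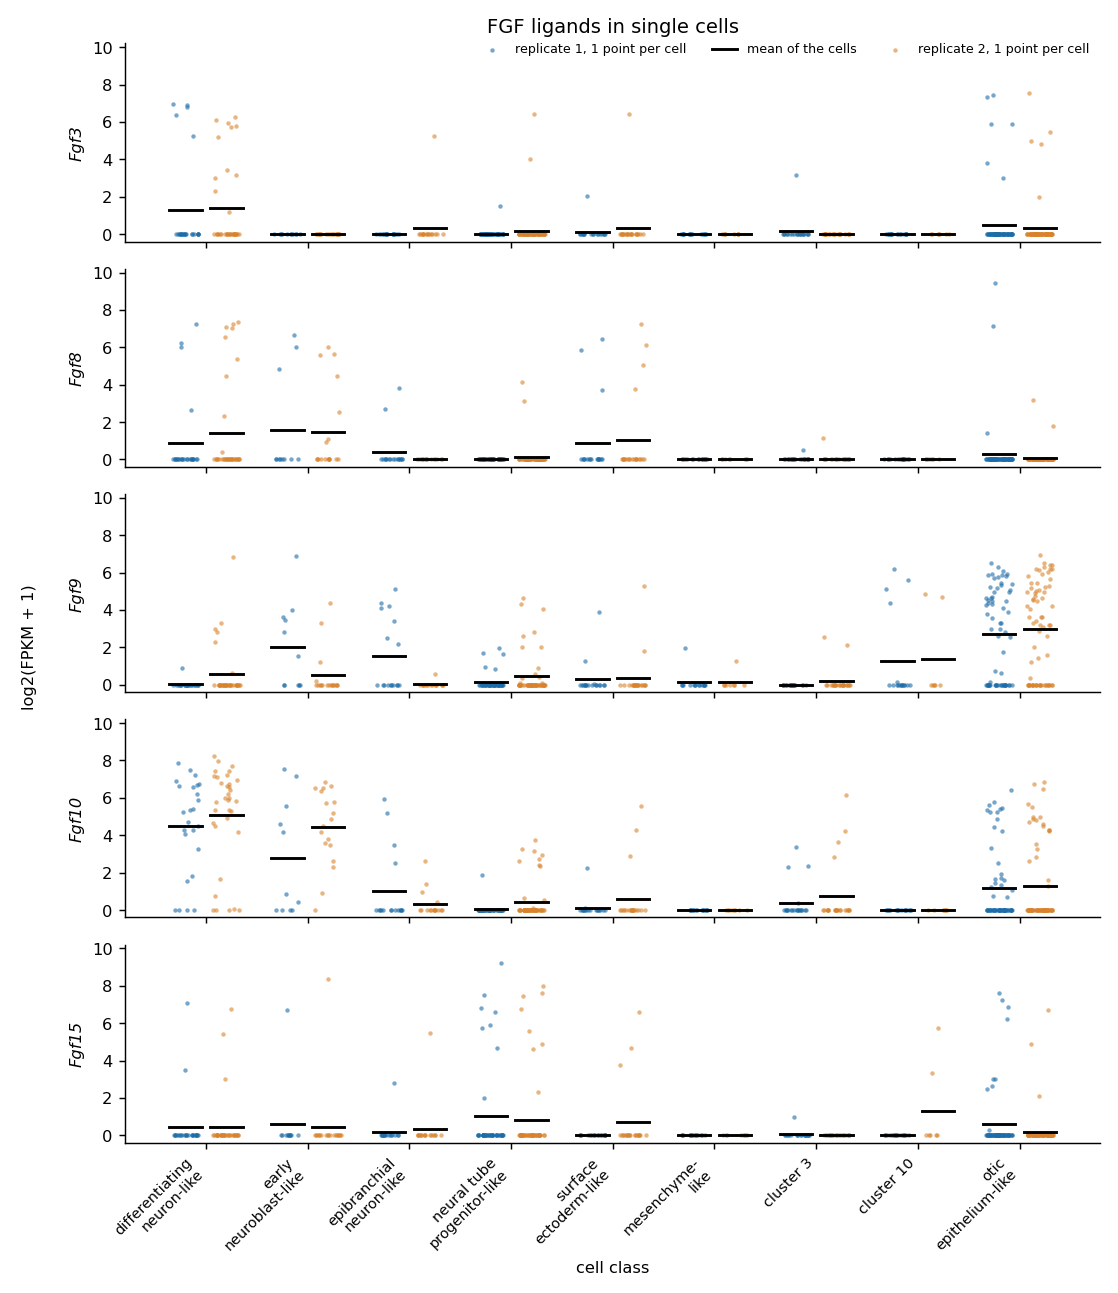
Each panel is a ligand, each point a cell, and the vertical axis is log2(FPKM + 1); blue is replicate 1, orange replicate 2, and a black bar is the mean of the cells of 1 class and replicate. Fgf10 reaches most differentiating neuron-like cells (49 of 59), while Fgf3, Fgf8 and Fgf15 are at 0 in most cells of every class and high in a few.

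Cells often held more than 1 ligand. At least 1 of the 5 was found in 268 cells, at least 2 in 95 and at least 3 in 18. After the correction the numbers were 239, 75 and 13. Fgf9 alone was the most frequent state (84 cells, 55 of them otic epithelium-like), followed by Fgf10 alone (59 cells, 20 of them differentiating neuron-like) and Fgf9 with Fgf10 (30 cells, 19 of them otic epithelium-like). Every Fgf8-positive cell of the otic neuronal classes also held Fgf10, 9 of 9 among early neuroblast-like and 12 of 12 among differentiating neuron-like cells, where Fgf10 is in most cells to begin with. The counts were 8 of 8 and 11 of 11 after the correction. In surface ectoderm-like cells, 3 of the 7 cells with Fgf8 held no other ligand. Fgf3 was with Fgf10 in 15 of 16 differentiating neuron-like cells and with Fgf8 in 3 of 16.

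Fgf3 and Fgf15 are neighbours on chromosome 7, on the same strand and 52094 bases apart. In the otic epithelium-like class the 11 cells with Fgf3 and the 11 with Fgf15 shared 6 cells, which is 54.5% of each. These 6 cells came from 4 plates and from both replicates (4 and 2), and from all 3 otic clusters. After the correction 5 cells were shared, 55.6% of the 9 with Fgf3 and 71.4% of the 7 with Fgf15. Of the otic cells without a known source well 3 held Fgf3 and the same 3 held Fgf15. Outside the otic class the overlap was 1 cell, a surface ectoderm-like one, with 0 of 16 differentiating neuron-like cells with Fgf3 holding Fgf15, and 0 of 16 neural tube progenitor-like cells with Fgf15 holding Fgf3.

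Within the otic epithelium-like class the ligands were set beside 15 regional genes of the vesicle, as counts with no test. The genes named here are a selection, and others differed between cells with and without a ligand too. Sox2 and Lfng, which mark the neurosensory region, were found in 10 and 6 of the 11 cells with Fgf3 (90.9% and 54.5%), against 55.9% and 11.02% of the cells without it. Tbx1, a factor of the non-neural posterior part, was found in 2 of the 11 (18.2%, against 46.5% of the cells without Fgf3). After the correction the 9 cells with Fgf3 held Sox2 in 9, Lfng in 6 and Tbx1 in 1. Cells with Fgf10 had Sox2 in 32 of 42 (76.2%, against 51.0%), Lfng in 7 of 42 (16.7%, against 13.5%) and Tbx1 in 16 of 42 (38.1%, against 46.9%). Cells with Fgf9 had Lfng in 7 of 85 (8.24%, against 24.5%) and Tbx1 in 40 of 85 (47.1%, against 39.6%). Lfng was in 4 of the 11 cells with Fgf15 (36.4%, against 16 of the 127 cells without it). Gata2 was in 7 of these 11 cells (63.6%, against 31.5%), and Gbx2, less frequent there, in 4 (36.4%, against 55.1%). Fgf8 was in 5 cells of the class, 4 of them in cluster 5 and none in the 26 cells of cluster 9, which allows at most 13.2% by the exact interval. In cluster 5 neither Oc90 nor Dlx5 reached 30% of cells, while Epcam, Lmx1a, Pax2 and Sox10 did. The scaled marker levels there averaged 0.42 for the pharyngeal endoderm list and 0.41 for the otic epithelium list. Fgf9 was in 48 of 76 cells of cluster 0 (63.2%), 19 of 36 of cluster 5 (52.8%) and 18 of 26 of cluster 9 (69.2%), with intervals that overlapped.

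Fgfr1, like the other receptors, was found in every class. It was most frequent in mesenchyme-like cells, with 21 of 23 (91.3%, 72.0 to 98.9), and least in differentiating neuron-like cells, with 19 of 59 (32.2%, 20.6 to 45.6), against 81 of 138 otic epithelium-like cells (58.7%, 50.01 to 67.0). The mean of log2(FPKM + 1) in the replicates was 3.25 and 3.75 in mesenchyme-like cells, above every other class. Cluster 10 came next at 1.92 and 3.24, so its higher replicate nearly reached the lower mesenchyme-like one. The means were 0.58 and 1.41 in differentiating neuron-like cells, against 1.79 and 2.1996 in otic epithelium-like cells. Neither difference from the otic epithelium-like cells was called, at 1.504 for mesenchyme-like cells (SE 0.50, limma adjusted p = 0.108) and -0.999 for differentiating neuron-like cells (SE 0.50, limma adjusted p = 0.288). Levels were low, with a median FPKM of 9.95 over the cells that had it, and at a limit of 5 FPKM it was in 200 cells, against 220 for Fgfr2.

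Fgfr2, the receptor of the Fgf3 and Fgf10 group in epithelia, was highest in surface ectoderm-like cells and lowest in differentiating neuron-like cells. It was found in 37 of 39 surface ectoderm-like cells (94.9%, 82.7 to 99.4), with a median FPKM of 46.2 and a highest value of 173.2, against 81 of 138 otic epithelium-like cells (58.7%, 50.01 to 67.0), with a median of 3.54 and a highest value of 138.3. The replicate means were 5.15 and 5.19 in surface ectoderm-like cells and 2.51 and 2.58 in otic epithelium-like cells. The difference was 2.63 (SE 0.53, limma adjusted p = 0.00505), in 6 of 6 plates, and only with the log2 of the mean FPKM was the call lost (1.53, adjusted p = 0.324). Neural tube progenitor-like cells came next, with 81 of 102 (79.4%, 70.3 to 86.8) and replicate means of 4.34 and 3.89. Their difference from the otic epithelium-like cells, 1.57, was higher in 6 of 6 plates and was not called (SE 0.53, limma adjusted p = 0.109).

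In the otic neuronal classes Fgfr2 was found in 4 of 59 differentiating neuron-like cells (6.78%, 1.88 to 16.5) and in 13 of 29 early neuroblast-like cells (44.8%, 26.4 to 64.3). The median FPKM in those 13 cells was 3.68 and the highest value 308.9, the highest Fgfr2 value of the table. Differentiating neuron-like cells were lower than otic epithelium-like cells by a difference of -2.29 (SE 0.53, limma adjusted p = 0.00682), in 6 of 6 plates. Among cells without a known source well the difference was -1.90 and not called (adjusted p = 0.36), and with fewer, larger clusters it was -1.85 (adjusted p = 0.0553). The early neuroblast-like cells were not called against the otic epithelium-like cells (-0.74, SE 0.53, limma adjusted p = 0.705). Their mean FPKM, unlike the mean of log2 values, was higher, at 30.96 in early neuroblast-like and 17.2 in otic epithelium-like cells. Here the correction mattered, with 7 of 29 early neuroblast-like cells left, and none of the 6 cells without a known source well held Fgfr2.

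Fgfr3 was a gene of the neural tube progenitor-like cells. It was found in 85 of 102 (83.3%, 74.7 to 89.98), with a median FPKM of 49.6 and a highest value of 306.6, against 26 of 138 otic epithelium-like cells (18.8%, 12.7 to 26.4), with a median of 0 and a highest value of 48.9. The replicate means were 4.68 and 4.93 in neural tube progenitor-like cells and 0.74 and 0.43 in otic epithelium-like cells. The difference of 4.22 (SE 0.44, limma adjusted p = 4.3e-06) was present in 6 of 6 plates and passed in each of the 19 settings. Cluster 10 was alike, with 16 of 24 cells (66.7%, 44.7 to 84.4), replicate means of 3.996 and 4.85 that overlapped those of the neural tube progenitor-like cells, and a difference from the otic epithelium-like cells of 3.84 (SE 0.44, limma adjusted p = 1.42e-05). Within the neural tube progenitor-like class, 64 of 72 cells of cluster 1 had Fgfr3 (88.9%, 79.3 to 95.1) and 21 of 30 of cluster 7 (70.0%, 50.6 to 85.3).

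Surface ectoderm-like cells came next for Fgfr3, with 16 of 39 cells (41.0%, 25.6 to 57.9) and replicate means of 1.58 and 1.76. The difference from the otic epithelium-like cells, 1.08, was not called (SE 0.44, limma adjusted p = 0.284). The low counts elsewhere were sensitive to the wells: of the 26 otic epithelium-like cells with Fgfr3, 11 remained after the correction, and 2 of the 43 without a known source well had it, whereas 82 of the 85 neural tube progenitor-like cells remained.

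**Figure D4:**
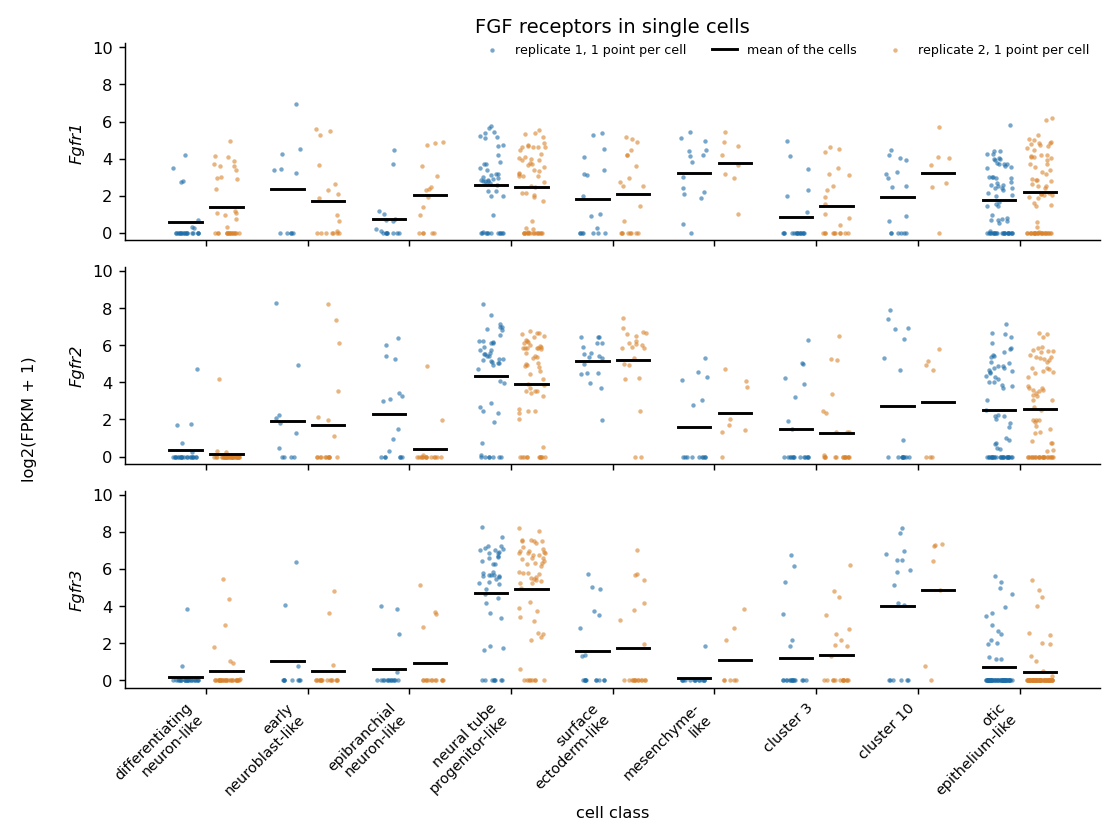
Each panel is a receptor, each point a cell, and the vertical axis is log2(FPKM + 1); blue is replicate 1, orange replicate 2, and a black bar is the mean of the cells of 1 class and replicate. Fgfr1 is spread over all classes, Fgfr2 is near 0 in differentiating neuron-like cells (4 of 59 cells) and high in surface ectoderm-like cells (37 of 39), and Fgfr3 is high in neural tube progenitor-like cells and in cluster 10.

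Counted per cell, 81.5% of the 491 cells held at least 1 receptor and 91 held none; after the correction it was 75.6%, with 120 holding none. The classes differed in how many a cell held. All 3 were found in 52 of 102 neural tube progenitor-like cells (51.0%) and 12 of 39 surface ectoderm-like cells (30.8%), against 4 of 138 otic epithelium-like cells (2.90%), where 58 cells had 2 receptors and 60 had 1. Differentiating neuron-like cells were the class with most cells lacking all 3, with 32 of 59, and 38 of 59 after the correction. No surface ectoderm-like cell lacked all 3. The class with the fewest receptors was also the one in which a ligand was most frequent, with at least 1 ligand in 52 of 59 differentiating neuron-like cells (88.1%). Then came 25 of 29 early neuroblast-like cells (86.2%) and 111 of 138 otic epithelium-like cells (80.4%), against 2 of 23 mesenchyme-like cells (8.70%).

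Of the 111 otic epithelium-like cells with a ligand, 97 also held a receptor (87.4%, against 92.6% of the otic cells without a ligand). In differentiating neuron-like cells it was 27 of 52 (51.9%), and 21 of 52 after the correction (40.4%), against 0 of the 7 differentiating neuron-like cells without a ligand. The pair of Fgf10 and Fgfr2 was found together in 4 of the 49 differentiating neuron-like cells with Fgf10 (8.16%), in 7 of 21 early neuroblast-like cells (33.3%) and in 23 of 42 otic epithelium-like cells (54.8%). After the correction these counts were 2 of 49, 2 of 20 and 17 of 36. Fgf9 and Fgfr2 were together in 50 otic epithelium-like cells, 58.8% of those with Fgf9 and 61.7% of those with Fgfr2.

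**Figure D5:**
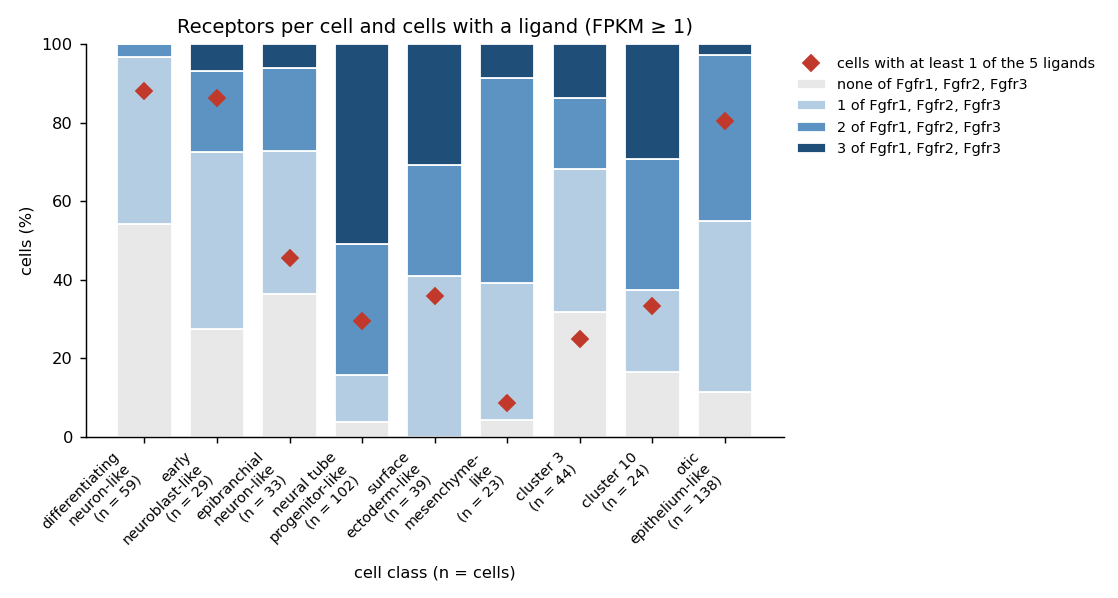
For each class, the bar divides the cells by how many of Fgfr1, Fgfr2 and Fgfr3 reached an FPKM of 1, and the red diamond is the percentage of cells with at least 1 of the 5 ligands. Differentiating neuron-like cells have ligands in 88.1% of cells and no receptor in 32 of 59, while neural tube progenitor-like cells have ligands in 29.4% and all 3 receptors in 51.0%.

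The rest of the pathway was followed through 74 listed genes, of which 50 were tested. In early neuroblast-like cells, set against otic epithelium-like ones, 3 were called and all were lower, where 0.65% of all genes tested were higher and 1.28% lower. Map2k1, the kinase between Raf and Erk, had replicate means of 4.27 and 3.84 in early neuroblast-like cells and 6.71 and 6.55 in otic epithelium-like cells, a difference of -2.58 (SE 0.50, limma adjusted p = 0.00595). Tbx1, a T-box factor of the otic epithelium, was at 1.42 and 0.87 in the early neuroblast-like cells, against 3.16 and 2.74 (-1.81, SE 0.28, limma adjusted p = 0.00107). Sox9, a transcription factor of the early ear, was at 3.55 and 3.496 in them, against 5.82 and 5.596 (-2.18, SE 0.48, limma adjusted p = 0.0172). The median difference over the 50 genes was -0.32, and over all genes tested -0.09. None of the 7 tested antagonists was called in that comparison. Dusp6 differed by -0.37, Spry1 by -0.80 and Etv5 by -0.85 (limma adjusted p = 0.94, 0.569 and 0.478). The calls of Map2k1, Tbx1 and Sox9 were not particular to the early neuroblast-like cells. Tbx1 was also called against the otic class in every other class, and Map2k1 and Sox9 in all but the mesenchyme-like one. In surface ectoderm-like cells, for instance, Map2k1, Tbx1 and Sox9 were all lower.

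Further along, 4 of the 50 were called between differentiating neuron-like and early neuroblast-like cells, all lower (2.58% of all genes higher, 0.93% lower): Sox9, the heparan sulphate proteoglycans Gpc3 and Gpc4 and the heparan sulphate sulphotransferase Hs6st2. Gpc3 was at 1.59 in differentiating neuron-like cells and 5.403 in early neuroblast-like cells, a difference of -3.82 (SE 0.44, limma adjusted p = 3.99e-05). Between differentiating neuron-like and otic epithelium-like cells 1 of 50 was higher and 10 were lower (412 and 519 of all 10179 genes), among them Gpc3, Sox9, Tbx1, Spry1 and the decoy receptor Fgfrl1. Spry1, a feedback inhibitor of the pathway, averaged 0.63 in differentiating neuron-like cells and 2.54 in otic epithelium-like cells (-1.91, SE 0.45, limma adjusted p = 0.00801). In neural tube progenitor-like cells 1 was higher and 8 were lower than in otic epithelium-like cells (1.17% and 3.77% of all genes). Spry1 was lower there too (-2.10, SE 0.45, limma adjusted p = 0.0072), as was Etv5 (-2.25, SE 0.41, limma adjusted p = 0.00199). In surface ectoderm-like cells 2 were higher and 4 lower (168 and 163 of all 10179 genes), and in mesenchyme-like cells 2 and 2 (1.71% and 2.71%). Epibranchial neuron-like cells had 3 higher and 8 lower (4.92% and 5.15%), cluster 3 had 1 and 13 (3.95% and 11.95%), and cluster 10 had 1 and 7 (1.45% and 4.41%). The median difference of all genes tested was itself below 0 against the otic epithelium-like cells in every class but the mesenchyme-like one (0.06), at -0.11 in differentiating neuron-like, -0.19 in neural tube progenitor-like, -0.14 in surface ectoderm-like and -0.09 in epibranchial neuron-like cells, -0.29 in cluster 3 and -0.19 in cluster 10.

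Genes that went with an FGF gene from cell to cell were ranked by the lower of the Pearson correlations in the 2 replicates (237 and 254 cells), a description over cells that share plates, wells and classes. For Fgf10 they included Neurod1 (0.50 in replicate 1 and 0.56 in replicate 2) and Actn3 (0.48 and 0.51). For Fgfr3 they were Ildr2 (0.63 and 0.63), Fabp7 (0.60 and 0.64) and Rfx4 (0.61 and 0.60). Fgf9 was followed by BC006965 (0.50 and 0.49), Wfdc2 (0.45 and 0.44) and Cldn6 (0.43 and 0.43), and Fgfr2 by Slc2a3 (0.36 and 0.38), Sparc (0.35 and 0.41) and Nr2f2 (0.35 and 0.36). Fgf8 had Jph1 (0.39 and 0.37) and Dcdc2a (0.31 and 0.52), found in 38 and 59 cells. No gene reached 0.3 in both replicates for Fgf3, Fgf15 or Fgfr1. Neurod1 and Fabp7 are markers that defined the classes.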

How the data were processed

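Expression was measured by SMART-seq style single-cell RNA-seq in sorted cells, 1 cell per sample. The deposited table holds log2(FPKM + 1) values, the FPKM being the authors' own; the tools in the submitters' processing notes were Cufflinks, TopHat, Bowtie, Bowtie2, SAMtools, cutadapt and FastQC, with build mm10 and no versions. The log scale was inferred: 2 to the power of a value, minus 1, gave numbers of 6 significant digits for 99.75% of values above 0 (relative error under 1e-07). No read counts could be recovered, so depth is unknown and no count test was used. Symbols and coordinates came from GENCODE M21 by identifier; 29 identifiers had no symbol, 132 rows of 63 repeated identifiers were left out, and 19494 genes were used.

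Cells were clustered on 81 markers (found in at least 1% of cells, from 13 lists), scaled, with 15 principal components, 15 neighbours and Leiden resolution 1 (scanpy 1.11.5), and clusters were named from leading genes and markers; no doublet caller was run. A pair of wells was linked where at least 50% of transcripts at or above 100 FPKM in the source, found in under 5% of cells, were found in the receiving position in both replicates. Class means per replicate were fitted with limma 3.58.1 (R 4.3.3, trend), with class and replicate as terms, since per the labels all classes of a replicate came from the same 3 plates. Simulated data with known changes were used to test the fit. Shares have exact Clopper-Pearson intervals. The FGF genes, marker and pathway lists and tests were chosen with earlier results of these data known. Named pathway genes are those called for early neuroblast-like minus otic epithelium-like cells, and a few others were chosen after their values were seen; most alike genes are the 3 with the highest lower correlation, from 0.3; a result among them is not reported here. Promoters came from RefSeq. Alternatives were the pseudocount, averaging, filters, scaling, blocking, weights, plates, transfer, cluster resolution and cells of other types.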

Additional observations from a re-analysis of the deposited data

Results flagged for a closer look

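A pair of values differed in sign between the replicates in every plate, and in neither case was the difference tested. Fgf15 in surface ectoderm-like minus otic epithelium-like cells was below 0 on all 3 plates of replicate 1 (0 of 18 surface ectoderm-like cells against 8 of 67 otic epithelium-like cells) and above 0 on all 3 plates of replicate 2 (3 of 21 against 3 of 71). The mean over plates in replicate 1 minus that in replicate 2 was -1.15 on the log2 scale, and each plate of replicate 2 had 1 surface ectoderm-like cell with Fgf15. Fgfr3 in epibranchial neuron-like minus otic epithelium-like cells was likewise below 0 on the plates of replicate 1 (3 of 17 cells against 16 of 67) and above 0 on those of replicate 2 (4 of 16 against 10 of 71), a gap of -1.08. These plate means rest on few cells. Fgfr3 was in 0 of 2 epibranchial neuron-like cells on plate 3, and in 1 of 3 on plate 4 and on plate 5. After the correction for transfer 3 of the 7 epibranchial neuron-like cells and 11 of the 26 otic epithelium-like cells with Fgfr3 remained.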

How the results depend on the processing

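Of the 20 calls of FGF genes, 3 came from the comparison added after the values were seen, and none reversed in any setting. All 20 were kept under upper-quartile scaling, weighting by cells, Leiden resolution 1.3 and without the replicate block (192 in place of 196 genes called for early neuroblast-like minus otic epithelium-like cells). A pseudocount of 0.1, no filter, the correction for transfer and leaving out endothelial or macrophage cells each kept 19, means per class and plate 18, Leiden resolution 0.7 14 of 17, and the 20% filter the 14 calls it could test. The log2 of the mean FPKM kept 9, cells without a known source well 10 of 19, and leaving out plates 1 to 6 in turn 16, 17, 14, 19, 19 and 18; the cause was not tested. With the log2 of the mean FPKM the numbers of FGF genes called were 0 (early neuroblast-like), 2 (differentiating neuron-like), 1 (neural tube progenitor-like), 0 (surface ectoderm-like), 3 (mesenchyme-like), 0 (epibranchial neuron-like) and 2 (cluster 3), each against otic epithelium-like cells, and 2 for differentiating neuron-like minus early neuroblast-like cells. The 20% filter tested fewer genes and gave 1, 3, 0 and 1 for early neuroblast-like and differentiating neuron-like minus otic, differentiating neuron-like minus early neuroblast-like and minus epibranchial neuron-like cells. Cells without a known source well gave 2, 1, 1, 1, 0 and 1 for differentiating neuron-like, neural tube progenitor-like, surface ectoderm-like and cluster 10 minus otic, and for differentiating neuron-like minus early neuroblast-like and minus epibranchial neuron-like cells. Means per class and plate gave 2 each for differentiating neuron-like minus early neuroblast-like, mesenchyme-like minus otic and epibranchial neuron-like minus otic cells. Weighting gave 6 for neural tube progenitor-like cells and 2 for cluster 3, Leiden resolution 0.7 gave 3 for differentiating neuron-like cells and 2 for cluster 3, and resolution 1.3 gave 2 for cluster 3. Cluster 10 had 1 without the filter, after the correction and without macrophage or endothelial cells. Leaving out plates gave 0 to 3 for early neuroblast-like, 3 to 5 for differentiating neuron-like, 0 to 1 for epibranchial neuron-like and 1 to 2 for cluster 10. Over all genes the numbers called moved by more than 1.5 times in each comparison: from 72 to 385 (196 as reported) for early neuroblast-like, 182 to 2305 (931) for differentiating neuron-like, 82 to 2262 (503) for neural tube progenitor-like, 97 to 783 (331) for surface ectoderm-like, 254 to 518 (450) for mesenchyme-like, 346 to 1799 (1025) for epibranchial neuron-like, 471 to 3187 (1618) for cluster 3 and 75 to 682 (597) for cluster 10, and 53 to 572 (358) and 33 to 382 (231) for differentiating neuron-like minus early neuroblast-like and minus epibranchial neuron-like cells. Resolution 0.7 merged the early neuroblast-like cells, and mesenchyme-like cells without a source well were too few. With 1 replicate left out there is no test. Of 72 shares of cells by class, 14 left their interval at 5 FPKM, 10 after the correction and 25 in cells without a known source well.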
